A study of Mus musculus with 6 samples.

Results

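The sparsely methylated circular RNAs (circRNAs) of the normal mouse retina were taken as those with a mean m6A methylation level of 15% or less on the 3 arrays of room air (RA) control retinas. They were chosen among the circRNA probes whose IP and Sup signals were both well above background on each of the 6 arrays. Of the 14236 circRNA probes, 5156 met the condition on signal, and 1061 of these, 20.6%, met the condition on the level. Arrays of retinas with oxygen-induced retinopathy (OIR) entered the choice only through the condition on signal.

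N6-methyladenosine (m6A) is an internal RNA mark that the METTL3-METTL14 complex deposits, that FTO and ALKBH5 can remove and that YTH-domain proteins bind. A circRNA is a closed loop without free ends, made by joining a downstream splice site to an upstream one, and it is therefore resistant to exonucleases such as RNase R. Neural tissues, the retina included, are rich in circRNAs. In the OIR model, high oxygen stops and prunes the growing retinal vessels of mouse pups, and the return to room air leaves the retina short of oxygen and causes abnormal new vessels.

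C57BL/6J pups of the OIR group breathed 75% oxygen from postnatal day 7 to day 12 and room air afterwards, and RA pups breathed room air throughout. Retinas of both groups were taken on day 17, each sample pooled 4 retinas from 2 mice, and there were 3 samples per group, so that p-values measure the spread between pools. RNA bound by an anti-m6A antibody (IP) was labelled with Cy5 and the unbound supernatant (Sup) with Cy3 after digestion with RNase R, and both were hybridized to 1 array per sample without exchange of the dyes. The level of a circRNA was IP / (IP + Sup), with each channel first divided by the geometric mean of the spike-in spots, so a level of 50% means as much IP as Sup relative to the spike-ins.

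The scale of the level is set by the spike-ins, whose log2(IP/Sup) was 0.94, 0.87 and 0.80 in the RA samples and 0.22, 1.28 and 1.22 in the OIR samples. It thus varied more within the OIR group than within the RA group. RA replicates 1 and 2 and OIR replicates 1 and 2 were scanned on the same day, and replicate 3 of each group on another. RA replicates 1 and 2 and OIR replicate 2 shared a scan time. OIR replicate 1, OIR replicate 3 and RA replicate 3 each had their own. No IP without antibody was among the arrays analysed here, so the part of the IP signal that does not come from methylation was not measured. The files and the tables used here do not pair the probe identifiers with circRNA names, host genes or sequences, and members are named by probe identifier.

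The members' levels on the RA arrays are given as a description, since these values chose them. Their mean RA levels ran from 1.65% to just under 15% with a median of 8.93%, and the middle part of the members, from the lower to the upper quartile, lay between 5.99% and 12.1%. The median level over the members was 9.87%, 7.51% and 8.43% on the RA arrays, against 40.4%, 38.7% and 40.3% for the other 4095 circRNAs with signal in both channels. RA replicate 1 was the highest of the 3 arrays for the members. It held 867 of its 1047 measured members at or below 15%, RA replicate 2 held 1044 of 1061 and RA replicate 3 held 1012 of 1061. With all spots kept, a level of 15% or less on each RA array was seen in 833 members, and 228 exceeded it on at least 1 array.

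The values on either side of the limit were close together. Probe ASCRP4006756, just inside it, had levels of 14.5%, 12.1% and 18.4% on the RA arrays, and probe ASCRP4012260 had 18.4%, 14.1% and 12.50%. Just outside it, probe ASCRP4010336 had 14.8%, 13.7% and 16.6% and probe ASCRP4011127 had 20.6%, 12.3% and 12.2%. The arrays of each of these circRNAs spread over both sides of the limit.

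To describe how the levels repeated between the RA arrays, each RA array was held out in turn. The level on the held-out array did not enter the choice, but its signals still did, through the condition on signal. The shares are therefore a description and not a test of the choice on an independent array. Of the 990 circRNAs chosen on the other two arrays, 97.1% lay at or below 15% on RA replicate 2, where 23.6% of all circRNAs with signal in both channels did. On RA replicate 3 the share was 91.9% of 1032 circRNAs against 22.4%, and on RA replicate 1 it was 73.3% of 1171 against 18.9%. The lower share on RA replicate 1 goes with the higher levels of the members on that array.

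The OIR retinas gave the same measure in samples that the limit did not use. Of the 1061 members, 983, or 92.6%, had a mean level of 15% or less on the 3 OIR arrays, against 22.7% of all circRNAs with signal in both channels, 31.1% of the 10480 circRNAs kept for the fits and 4.59% of the circRNAs with signal in both channels that were not members. The members' mean OIR level had a median of 8.23% and ran from 1.46% to 23.2%. The median over the members was 8.17%, 7.23% and 8.88% on the 3 OIR arrays, and the share of members at or below the limit was 91.8%, 94.7% and 85.2%. With all spots kept, 860 members stayed at or below 15% on all 3 OIR arrays, and 751 did so on all 6 arrays.

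**Figure D1:**
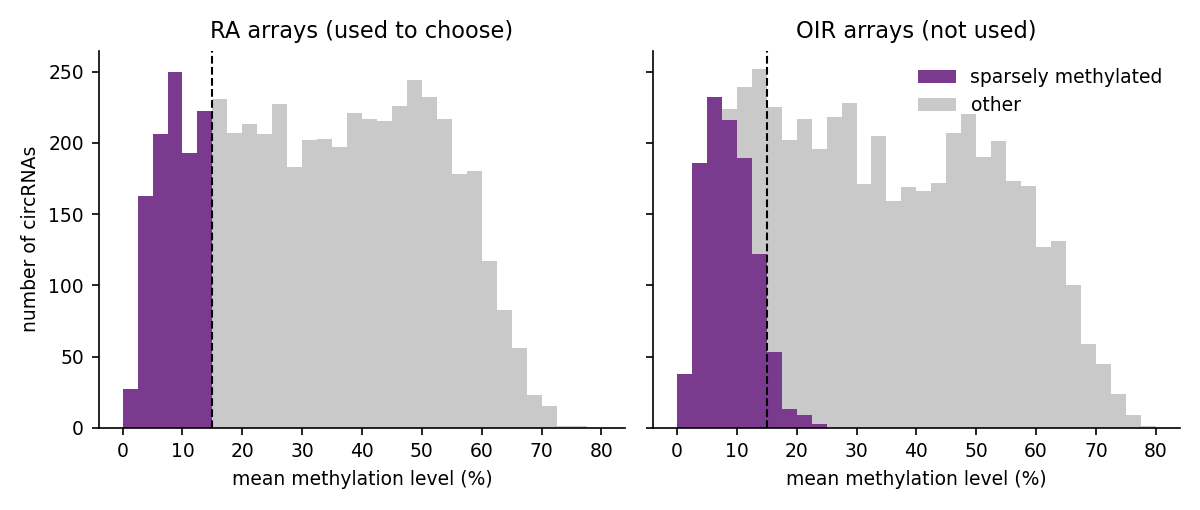
Number of circRNAs (vertical axis) by mean m6A methylation level in percent (horizontal axis, bins of 2.5%) on the 3 RA arrays and on the 3 OIR arrays, for the 5156 circRNAs with signal in both channels, with the 1061 sparsely methylated ones in purple and the limit of 15% as a dashed line. The limit does not fall in a gap between groups of circRNAs, and on the OIR arrays 983 members remain to its left.

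The members were below an even ratio of IP to Sup on the OIR arrays without exception. In a limma fit of log2(IP/Sup) over these 3 arrays alone, 1061 of 1061 members were below 0 after Benjamini-Hochberg adjustment over 10480 circRNAs, where 63.1% of all the circRNAs tested and 60.3% of those with signal in both channels were called in that direction, and the largest adjusted p among the members was 0.00681. Of the 1103 circRNAs with a mean RA level of 50% or more, 3 were called below 0 and 478 above it, a direction taken by 7.78% of all circRNAs tested, 9.29% of those with signal in both channels and 0 members. This test rests on the spike-in scale, and a second one did not. When the median circRNA of each OIR array was set to 0, 1042 members, 98.2%, were below the median with an adjusted p under 0.05 in limma, where 37.6% of all circRNAs tested, 30.6% of those with signal in both channels and 13.1% of those outside the members were. The 19 other members did not pass.

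**Figure D2:**
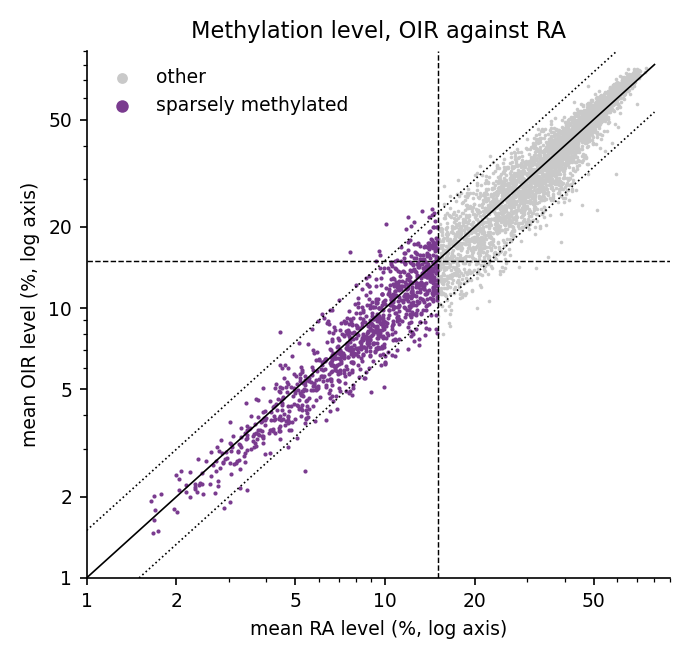
Mean OIR level against mean RA level in percent, both on log axes, for the 5156 circRNAs with signal in both channels (members purple, others grey), with the line of equal levels, dotted lines at 1.5-fold and dashed lines at the limit of 15%. Of the members, 1004 lie within 1.5-fold of equality in the fitted difference, and 78 lie above the limit on the OIR arrays.

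The members' log2 ratios kept a similar order across the OIR arrays. The log2 ratios of the 1061 members correlated with an r of 0.856 to 0.892 between pairs of OIR arrays, and those of the 4095 other circRNAs, which cover a wider range of levels, with 0.902 to 0.951. These correlations are across circRNAs and not across samples, and they are a description. The dyes were not exchanged, so probe or dye effects that are the same on every array cannot be told apart from methylation here. The median SD of a member's log2 ratio over the OIR arrays was 0.276, the same as the 0.276 of the other circRNAs. In units of level the members' SD was 1.34 percentage points and that of the others 3.98, and the highest OIR level of a member was a median of 1.39 times its lowest.

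The members followed their RA levels in steps. The 27 circRNAs at or below 2.5% in RA had a median OIR level of 2.11%, with none above 2.75%. The 163 between 2.5% and 5% had a median OIR level of 3.54%, the 206 between 5% and 7.5% had 5.87%, and the 250 between 7.5% and 10% had 8.18%. In the bands of 10% to 12.5% and of 12.5% to 15%, with 193 and 222 members, the OIR medians were 11.1% and 13.4%. Of the 78 members above 15% on the OIR arrays, 61 thus came from among the 222 closest to the limit, where 161 stayed at or below it, and 21 of the 78 were above it on each OIR array. Conversely, 188 circRNAs that were not members had an OIR level of 15% or less, and their RA levels ran from 15.02% to 31.9%.

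The lowest levels on the OIR arrays were near 1.5%. Probe ASCRP4012047 had levels of 2.35%, 1.26% and 1.39% in RA and 1.503%, 1.47% and 1.43% in OIR. Its OIR arrays were nearly equal and lay within the range of the RA arrays. Behind the OIR values stood background-subtracted IP intensities of 14.5, 25.9 and 9.39 against Sup intensities of 816, 717 and 278. Its mean OIR level of 1.46% was 4.66% after centring on the median circRNA, 6.49% without background correction and 9.44% after normexp correction.

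Probe ASCRP4014212 had 2.66%, 1.02% and 1.52% in RA and 1.11%, 1.48% and 1.90% in OIR. Probe ASCRP4013282 had 1.87%, 1.59% and 1.58% in RA and 1.30%, 1.40% and 2.23% in OIR. The groups overlapped for both. Their IP signals were dim, with OIR intensities of 11.4, 19.6 and 16.6 for ASCRP4014212 and 7.02, 10.8 and 7.04 for ASCRP4013282. Of the mean OIR levels, that of ASCRP4014212 was 1.49% and that of ASCRP4013282 was 1.64%, and after normexp correction they were 8.89% and 14.2%. On the OIR arrays alone the mean log2(IP/Sup) of ASCRP4012047 was -6.07 with a standard error of 0.195, and that of ASCRP4014212 was -6.08 with a standard error of 0.240. The adjusted p was 7.37e-05 in limma for both.

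The highest OIR levels among the members were between 22.5% and 23.2%. Probe ASCRP4006578 had levels of 16.7%, 12.8% and 13.5% in RA and 21.8%, 23.1% and 24.8% in OIR. Every OIR array was above every RA array. The log2 difference in level was 0.70 with a standard error of 0.152, and its adjusted p over all circRNAs tested was 0.482 in limma. Its mean OIR level of 23.2% was 14.07% from the processed signals, which is under the limit, and 49.7% after centring on the median circRNA.

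Probe ASCRP4005296 had 17.2%, 8.22% and 14.4% in RA and 19.8%, 18.6% and 30.4% in OIR, with an adjusted p of 0.685 in limma. Probe ASCRP4005891 had 18.0%, 11.4% and 14.3% in RA and 21.6%, 16.0% and 29.9% in OIR. The groups did not overlap for the former, which the same choice favours, and overlapped for the latter. Both circRNAs were dim, with IP intensities between 7.18 and 19.8 on all arrays, while ASCRP4006578 had IP intensities of 116 to 296. After loess the mean OIR levels of ASCRP4005296 and ASCRP4005891, 22.9% and 22.5%, were 49.3% and 45.3%. These 3 circRNAs were not below the median circRNA of the OIR arrays with an adjusted p under 0.05 in limma.

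**Figure D3:**
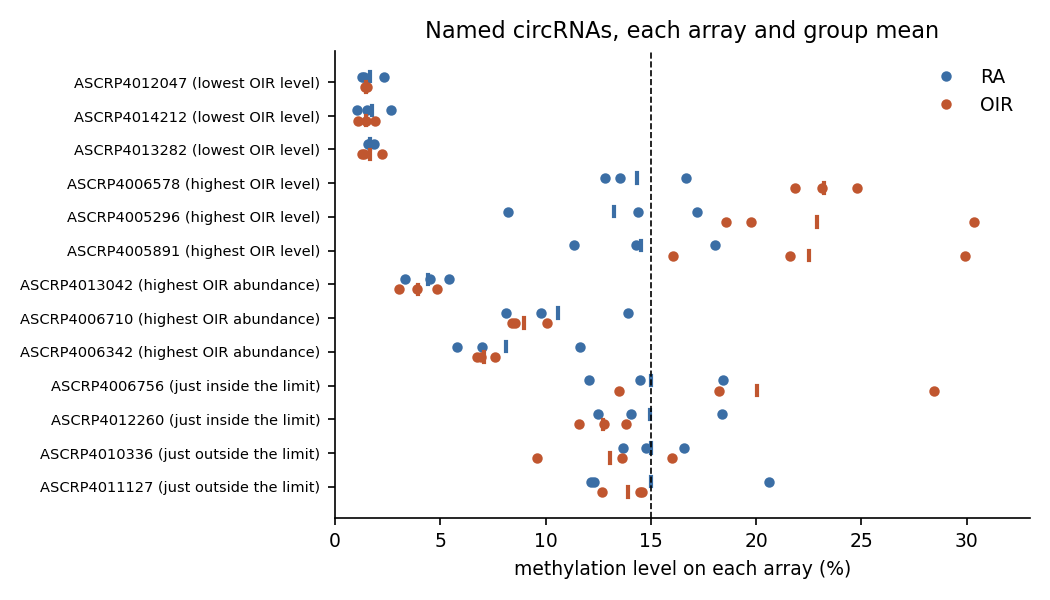
Methylation level in percent on each array (points) and the mean of each group of 3 arrays (short vertical lines) for the circRNAs named in the text, RA in blue and OIR in orange, with the limit of 15% as a dashed line. The 3 members with the lowest levels stay under 3% on every array. The 3 named for the highest OIR levels cross the limit on the spike-in scale, which that choice favours. From the processed signals the mean OIR level of ASCRP4006578 was 14.07%.

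Members were also described where the signal was strong, at the 3 probes with the brightest normalized IP + Sup on the OIR arrays. Brightness depends on the probe as well as on the circRNA, and no order of amounts between circRNAs is read from it. Probe ASCRP4013042 had Sup intensities of 81203, 82671 and 38413 in RA and 65539, 72455 and 67224 in OIR. Its IP intensities were 7416, 5175 and 3819 in RA and 3875, 5526 and 6395 in OIR. Its level was 4.53%, 3.31% and 5.41% in RA and 4.83%, 3.04% and 3.91% in OIR, so that the groups overlapped.

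Probe ASCRP4006710 had levels of 13.9%, 8.12% and 9.79% in RA and 10.1%, 8.39% and 8.53% in OIR. Probe ASCRP4006342 had 11.6%, 5.77% and 6.97% in RA and 7.58%, 6.76% and 6.95% in OIR. RA replicate 1 was the highest array for both, and the other RA arrays overlapped with the OIR arrays. The mean OIR levels of the 3 probes were 3.93%, 8.995% and 7.10%, and after centring on the median circRNA they were 11.8%, 24.5% and 20.03%, so the latter pair passed the limit. Among the circRNA spots 0 were marked as saturated.

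The condition on signal admits a circRNA with a low level only if its Sup signal is high enough for its IP signal to be well above background. On the OIR arrays the members' median log2 intensity relative to the spike-ins was 0.085 in IP and 3.87 in Sup, and that of the other circRNAs was 1.57 and 2.27. A further 132 circRNAs were well above background in Sup on all 6 arrays and in IP on none, and these could not become members.

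The remaining comparisons set OIR against RA, and since the RA values chose the members, the counts are descriptions from which nothing is read about the members. For the level, 12 members were higher and 27 lower in OIR by 1.5-fold or more with a limma p, before adjustment, under 0.05. That was 1.13% and 2.54% of the members, against 1.2% and 3.72% of the 10480 circRNAs tested and 0.349% and 1.76% of those with signal in both channels. No member (0) passed Benjamini-Hochberg adjustment in limma or by the methods' t-test, the smallest adjusted p was 0.422, and 73 members had a p under 0.05 before adjustment, or 6.88%, against 7.3% of all circRNAs tested and 5.22% of those with signal in both channels. The 12 higher members had OIR levels of 8.19% to 23.2% and the 27 lower ones 2.15% to 10.8%. The largest changes were 2.07-fold up and 2.15-fold down.

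The split between directions moved with single arrays and with the scaling. Without RA replicate 1, 2 or 3 it was 37 higher and 29 lower, 8 and 33, and 12 and 19. Without OIR replicate 1, 2 or 3 it was 26 and 22, 20 and 18, and 8 and 30, and after centring on the median circRNA 8 and 8. The fitted difference was within 1.5-fold for 94.6% of the members and for 97.8% of the other circRNAs with signal in both channels. The median log2 difference in level over the members was -0.076, against -0.0035 over all circRNAs tested. It was -0.12 among the 4 arrays scanned on the first day and 0.073 between the 2 arrays of the second day. Over all circRNAs tested it was -0.071 and 0.13, so that the members minus all circRNAs gave -0.052 on both days. These values use the RA levels that chose the members, so their equality does not show that the difference is stable.

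The m6A quantity, which is the normalized IP signal, was lower in OIR for 243 members and higher for 2 at the same fold change and p, or 22.9% and 0.189% of the members, against 14.7% and 1.21% of all circRNAs tested. Among the circRNAs with signal in both channels the shares were 10.3% and 1.16%. With limma, 0 members passed adjustment, with a smallest adjusted p of 0.0929, against 0.162% of all circRNAs tested. Before adjustment 267 members had a limma p under 0.05, or 25.2%, against 18.1% of all circRNAs tested and 14.8% of those with signal in both channels. With trend and robust estimation in limma, 19 of the 1061 members passed adjustment. So did 58 of all 10480 circRNAs tested, or 0.553%, and 43 of the 5156 with signal in both channels, or 0.834%. By the methods' t-test 0 members did. In bulk retina, fewer cells of a type and less RNA per cell cannot be told apart.

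The abundance, which is the normalized IP + Sup signal of a probe, was lower in OIR for 151 members and higher for 3, or 14.2% and 0.283% of the members, against 11.4% and 0.84% of all circRNAs tested and 5.33% and 0.776% of those with signal in both channels. No member (0) passed adjustment in limma, with trend and robust estimation or by the methods' t-test, and before adjustment 220 had a limma p under 0.05, or 20.7%, against 16.8% of all circRNAs tested and 11% of those with signal in both channels. The number of members past the threshold, 154, was 241 without RA replicate 1, 94 without RA replicate 2, 93 without RA replicate 3, 313 without OIR replicate 2 and 86 without OIR replicate 3, with more lower than higher members each time.

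The median log2 difference in m6A quantity was -0.40 over the members and 0.0048 over the other circRNAs with signal in both channels, and in abundance it was -0.36 and -0.019. Over all circRNAs tested these medians were -0.19 and -0.21, and they depend on the spike-in scale. The others pool all RA levels above 15%. Those between 15% and 20% had medians of -0.31 and -0.27, and those above 50% had 0.19 and 0.12. After centring on the median circRNA, the members' medians were -0.14 in quantity and -0.14 in abundance, and those of the others were 0.27 and 0.24, so that the members stayed below the others while the sign or size of each median followed the scaling.

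Array by array, the members' m6A quantity deviated from the mean of the 6 arrays by a median of 0.42, -0.033 and 0.24 in RA and -0.25, -0.11 and -0.24 in OIR on the log2 scale. Every RA array was above every OIR array, with RA replicate 2 the closest to the OIR arrays. For the other circRNAs the values were 0.17, -0.11 and -0.087 in RA and 0.062, 0.027 and -0.073 in OIR, and the groups overlapped. In abundance the members' values were 0.14, 0.17 and 0.26 in RA and -0.23, 0.047 and -0.35 in OIR, again without overlap, with OIR replicate 2 the closest to the RA arrays. Those of the other circRNAs were 0.14, -0.057 and -0.073 in RA and 0.016, 0.064 and -0.15 in OIR.

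**Figure D4:**
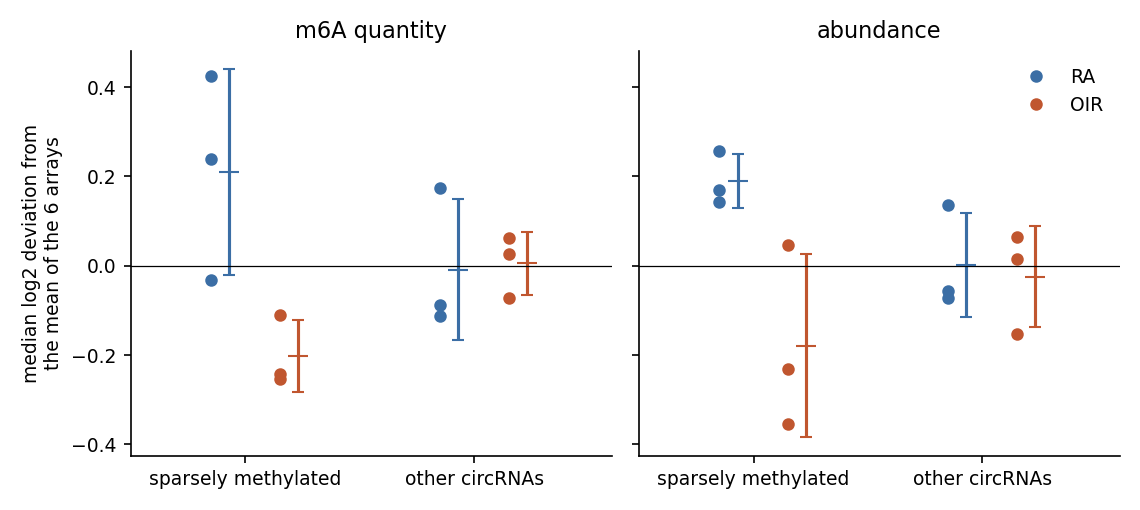
Median log2 deviation of m6A quantity (left) and abundance (right) from the mean of the 6 arrays, on each array (points) for the 1061 sparsely methylated and the 4095 other circRNAs with signal in both channels, with the mean and SD of the 3 arrays of each group beside them (RA blue, OIR orange; spike-in scale). The groups do not overlap for the sparsely methylated circRNAs and overlap for the others; the members were chosen on the RA arrays.

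A contrast chosen after the data were seen, the members' median minus that of the other circRNAs, was -0.40 in quantity and -0.34 in abundance. Within the first scan day, with 2 arrays of each group, it was -0.35 and -0.24, and between the single arrays of the second scan day it was -0.49 and -0.53. With each array left out it was between -0.49 and -0.33 in quantity and between -0.44 and -0.25 in abundance. Without background correction it was -0.20 and -0.31, and after normexp correction -0.098 and -0.25. All of these values use the RA signals that chose the members, so a sign shared among them does not show that the difference is stable, and they are a description.

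The difference between the groups was also set out by brightness and by RA level. Probes were put in 5 equal classes by their abundance on the OIR arrays. The same OIR signals also enter the differences, so part of a rise from the dimmest to the brightest class is built in. No trend over the classes is therefore read as a trait of the circRNAs. From the dimmest to the brightest class, the members' median log2 difference in abundance was -0.41, -0.38, -0.35, -0.38 and -0.31. That of the other circRNAs was -0.18, -0.095, -0.012, 0.079 and 0.18. The members were the lower in each class, with the smallest distance in the dimmest. In m6A quantity the members' values were -0.27, -0.41, -0.40, -0.48 and -0.32 and those of the others -0.23, -0.075, 0.014, 0.13 and 0.21, so that members and others were close in the dimmest class. By RA level, the median difference in m6A quantity was -0.31 in the band up to 2.5%, -0.50 in that of 2.5% to 5%, -0.49 in that of 5% to 7.5%, -0.46 in that of 7.5% to 10%, -0.27 in that of 10% to 12.5% and -0.26 in that of 12.5% to 15%. Among the other circRNAs it was -0.31 in that of 15% to 20%, -0.19 in that of 20% to 30%, 0.015 in that of 30% to 50% and 0.19 above 50%. The values did not follow the RA level in one direction below 20%. The circRNAs in the band just above the limit of 15% differed between the groups about as much as the members in the band just below that limit.

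**Figure D5:**
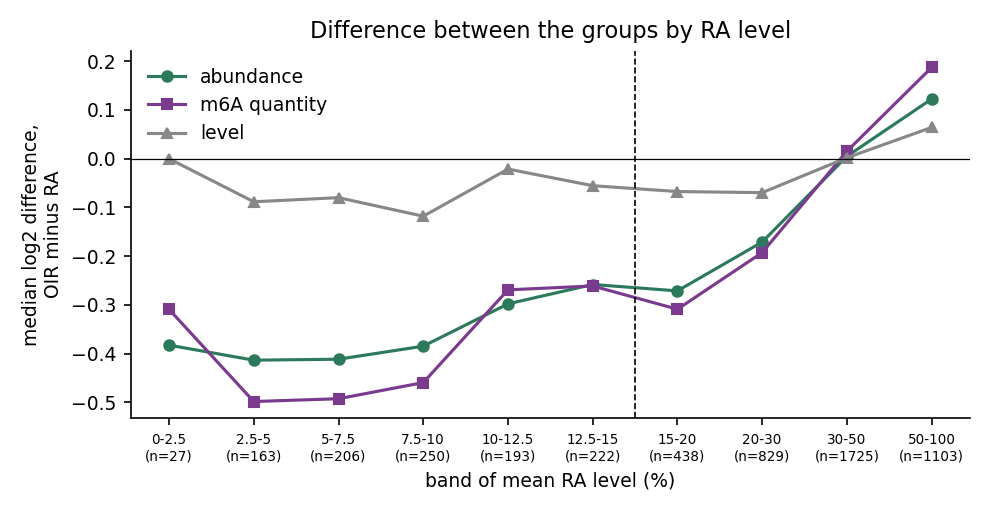
Median log2 difference between OIR and RA (vertical axis) in abundance, m6A quantity and level, on the spike-in scale, by band of mean RA level in percent with the number of circRNAs in each (horizontal axis); the dashed line is the limit of 15%. The medians of quantity and abundance are below 0 in all bands up to 30% and at or above 0 beyond; after centring on the median circRNA the members' medians were -0.14 in both.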

How the data were processed

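For 15710 spots per array the authors deposited raw, background, background-subtracted and processed intensities with flags, made with Agilent Feature Extraction 11.0.1.1, per the labels and file headers. Following the methods, the mean log2 intensity of the 102 probes (306 spots) whose names read as spike-ins, an inference from the names, was subtracted in each channel, with signals under 1 set to 1. The limit was applied to all spots. The counts of members at or below 15% on every array of a group or on all 6 arrays, and the held-out shares, also kept all spots. Outlier spots, present on at least 1 array for 25 members, were left out of the other values, which left 2 members with 1 OIR value. Fits used limma 3.58.1 (R 4.3.3) on log2 values of 10480 circRNAs that rose well above background on 3 or more arrays in either channel, and were tested on simulated data. After background subtraction a dim signal can be close to 0, and its level is then sensitive to small errors.

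Named were the 3 members with the lowest and the 3 with the highest mean OIR level, the 3 with the brightest signal on the OIR arrays, and the 2 circRNAs nearest to the limit on each side. Host gene lists were planned but could not be used. The members and lists were chosen with earlier results of these data known. Alternatives were other normalizations, background corrections, filters, limits and tests, blocks, and each array left out.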

Additional observations from a re-analysis of the deposited data

How the results depend on the processing

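The level depends on scale and background, which limit any absolute reading. The number of sparsely methylated circRNAs, 1061, was 514 without spike-in normalization, 219 after median centring, 392 after loess, 307 without background correction, 224 after normexp correction and 646 with a limit of 10%, and 990 to 1171 with each RA array left out. Each of these counts applied the limit anew. Of the original 1061 members, the number at or below 15% on the OIR arrays, 983, was 540, 241, 465, 246 and 158 under the first 5 of these alternatives. It was 953 to 1007 with each OIR array left out. The members were not chosen again for these counts, so the 2 series are not shares of each other. The causes of the changes were not tested. The members with less IP than Sup (1044 to 1061) and below the array median (1016 to 1056) on the OIR arrays were within 1.5 times of 1061 and 1042 under every alternative run. Neither count can exceed 1061. The comparison of IP with Sup was not run after median centring or loess. The one with the array median was not run under any other normalization.

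In OIR against RA, the members past the threshold in level, 39, were 11 without spike-in normalization (5 higher and 6 lower), 16 after median centring (8 and 8), 25 after loess (8 and 17), 5 without background correction (4 and 1), 3 after normexp correction (1 and 2), 23 with trend and robust estimation, 13 on the linear level (8 and 5) and 40 from processed signals (17 and 23). In m6A quantity, 245 became 91, 109 (14 higher and 95 lower), 90 and 25 without spike-in normalization, after median centring, without background correction and after normexp correction. In abundance, 154 became 57, 45 (7 and 38) and 85 without spike-in normalization, after median centring and after normexp correction, and 250 from processed signals. With each array left out the counts were 31 to 66, 176 to 291 and 86 to 313. The causes were not tested.

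Same-numbered arrays deviated together with r of -0.143, 0.0117 and -1.72e-05, which gives no pairing by number. The counts with the replicate block were 41, 232 and 159, and with the scan day as a block 37, 252 and 170.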
